A study of Oryctolagus cuniculus with 6 samples.

Results

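Tissue from skull defects filled with human particulated dentin (HPD) was set against tissue from empty defects 7 days after surgery. Each side was 1 single-dye array, so the comparison rests on 2 of the 6 arrays of the series and gives folds and ranks only. A probe was taken where its spot was well above background on both day 7 arrays, carried no outlier mark and was not a control spot, which left 33872 of 43603 probes. These probes covered 8768 named genes.

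The animals were male New Zealand White rabbits aged 4 months, 24 in the whole study. Each received 4 round defects of 5 mm in the parietal bone. The right-hand defects received HPD, 0.2 g by the labels, and the remaining defects of the same animals were left unfilled as controls, so the control tissue lay in the same skull as the graft. Arrays for day 3, day 5 and day 7 exist for each treatment, with 1 array per treatment and day. Nothing in the labels tells whether an array held RNA of 1 animal or of several pooled, so each array counts as 1 sample. The design text names bone tissue and blood, whereas all 6 samples are labelled as new tissue. Both day 7 arrays and both day 5 arrays lay on slide 1 and the day 3 arrays on slide 2.

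A level below is log2 of the scanner's processed intensity minus the array's 75th percentile, so that 0 is the signal of that percentile. A difference is the level with HPD minus the level in the control. Levels of different probes are not comparable with each other. With no replicate, the spread between animals is unknown and there is no p-value. For scale, 35 probes spotted several times on both day 7 arrays gave a median SD of 0.11 for the difference of a single spot, with a largest SD of 0.55. Named genes with several probes had a median SD of 0.10 between their probes' differences. These spreads hold spot and probe noise only.

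As background, a bone defect fills first with clot and inflammatory cells, then with granulation tissue in which fibroblasts lay down a loose collagen matrix. Osteoblasts later deposit a matrix of type I collagen and acidic phosphoproteins that takes up mineral, and osteoclasts remodel it. Dentin is a mineralised tissue of type I collagen close to bone in make-up, and ground dentin has been used as a bone graft. In whole tissue, fewer cells of a type and less RNA per cell cannot be told apart.

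Of the 33872 probes, 531 were at least 2-fold higher with HPD (1.57%) and 291 at least 2-fold lower (0.859%), 2.43% in all. The share of higher probes among them depended on scaling, at 64.6% as reported and 51.7% when each array was centred on its median. The arrays' spike-in control probes, scaled in the same way, differed by -0.04 to 0.34 (log2, HPD minus control), with only the lowest value below 0. Their bearing on the scaling was not tested. Among the 8768 named genes, 109 were at least 2-fold higher (1.24%) and 82 at least 2-fold lower (0.935%), which is 2.18%. By any amount, 54% were higher and 46% lower. On day 5, 3.78% of 8973 named genes were at least 2-fold higher and 1.69% lower, 5.47% in all. On day 3, 2.26% of 9196 were higher and 2.24% lower, 4.5% in all. The levels of the 2 day 7 arrays correlated with r = 0.989 across probes, against 0.981 on day 5 and 0.982 on day 3. Probes are not replicates, and these values only describe how near the arrays lay to each other.

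The difference depended on brightness. Of 5 equal groups of measured probes by brightness, the dimmest had 194 probes at least 2-fold higher and 52 lower, and its median difference was 0.10. In the brightest group it was -0.11, with 48 higher and 47 lower. The HPD array also had fewer spots well above background (78.1% against 85.3%) and a wider spread of its negative controls (SD 8.32 against 2.74 intensity units, or 3.37 against 2.74 over spots that were no outliers). With a normexp background correction, which shrinks dim signals towards each other, 117 probes were at least 2-fold higher and 94 lower. For a number of dim genes the normexp value is given beside the difference.

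**Figure D1:**
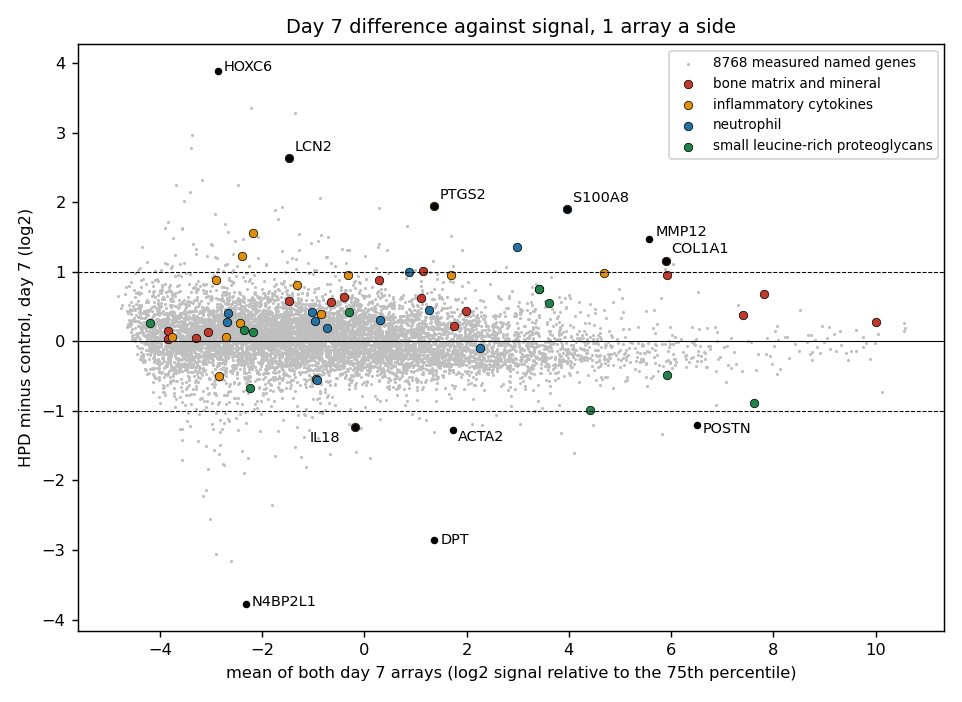
Difference at day 7 (log2, HPD minus control, vertical axis) against the mean level of both day 7 arrays (log2, horizontal axis) for 8768 named genes, 1 point a gene, with members of 4 gene lists in colour and dashed lines at 2-fold. The cloud is widest at low levels. As scaled here, the bone matrix members all lie above 0.

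The bone matrix genes shared 1 direction. All 18 members measured, of 18 on the array and 27 in the list, were higher with HPD, beside 54% of all named genes. Their median difference was 0.58 against 0.04 for all named genes, and the range ran from 0.04 to 1.15. The members nearest 0 changed side with the scaling, so that 17 of 18 were higher with normexp and 16 of 18 with quantile normalization or median centring. Only COL1A1 and DMP1 reached 2-fold, 2 of 18 beside 1.24% of named genes. On day 5 the same list had pointed the other way, with 11 of 17 members lower with HPD beside 46.2% of named genes that day, and a median of -0.76, and on day 3 its median was 0.04.

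The probes of COL1A1 and IBSP are shown as those of well-known bone matrix genes. COL1A1 encodes a chain of type I collagen, the main protein of bone, and IBSP encodes bone sialoprotein, which osteoblasts secrete into mineralising matrix. The 60-base probes lie on oryCun2 at chr19:37489117-37489176 (plus strand) and chr15:62360093-62360152 (minus strand).
COL1A1: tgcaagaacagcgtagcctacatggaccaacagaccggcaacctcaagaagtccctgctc
IBSP: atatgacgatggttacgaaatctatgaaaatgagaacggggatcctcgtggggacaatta

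COL1A1 stood at 5.33 in the control and 6.48 with HPD. On day 5 its levels had been 5.29 in the control and 4.03 with HPD. The HPD level of day 7 was thus the highest of the 6 arrays, while the control level hardly differed between day 5 and day 7. COL1A1 had 1 probe. For COL1A2, the other chain of type I collagen, 11 probes all gave higher values with HPD, by 0.13 to 0.56, and its level was 9.86 in the control and 10.15 with HPD.

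IBSP stood at 5.44 in the control and 6.39 with HPD, and its 2 probes differed by 0.95 and 1.01. On day 5 the control had read 6.85 and HPD 4.76. The control level was lower on day 7 than on day 5, and the HPD level was higher. DMP1, a phosphoprotein of osteocytes and of dentin, had the same order, at 1.58 in the control and -0.68 with HPD on day 5, then 0.65 and 1.65 on day 7. All 5 of its probes were higher with HPD on day 7, by 0.98 to 1.08.

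PHEX, a peptidase of osteoblasts and osteocytes that acts on phosphate balance, stood at -0.16 in the control and 0.72 with HPD. OMD, the small proteoglycan osteomodulin, stood at 3.04 and 3.78. SPP1, osteopontin, made by osteoblasts and by macrophages, stood at 7.48 and 8.16. For PHEX and OMD the HPD array had been the lower one on day 5, at -1.69 against 0.14 and at 1.33 against 3.51. SPP1 was higher with HPD on all 3 days, by 1.75 on day 3, 0.22 on day 5 and 0.68 on day 7.

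Further members were CREB3L1, a transcription factor for collagen export in osteoblasts (0.62, 5 probes from 0.51 to 0.73), ENPP1, which makes pyrophosphate (0.63), and ANKH, which moves it out of cells (0.58). At the low end stood SOST, the osteocyte inhibitor sclerostin (0.04, or -0.022 with quantile normalization), PHOSPHO1, a phosphatase of matrix vesicles (0.04, or -0.056 with normexp), and MEPE, an osteocyte phosphoprotein (0.13). The osteocyte products SOST and MEPE were dim on both arrays, at levels of -3.31 and -3.13 in the control. ALPL and BGLAP, often used as osteoblast markers, were not named on the array.

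**Figure D2:**
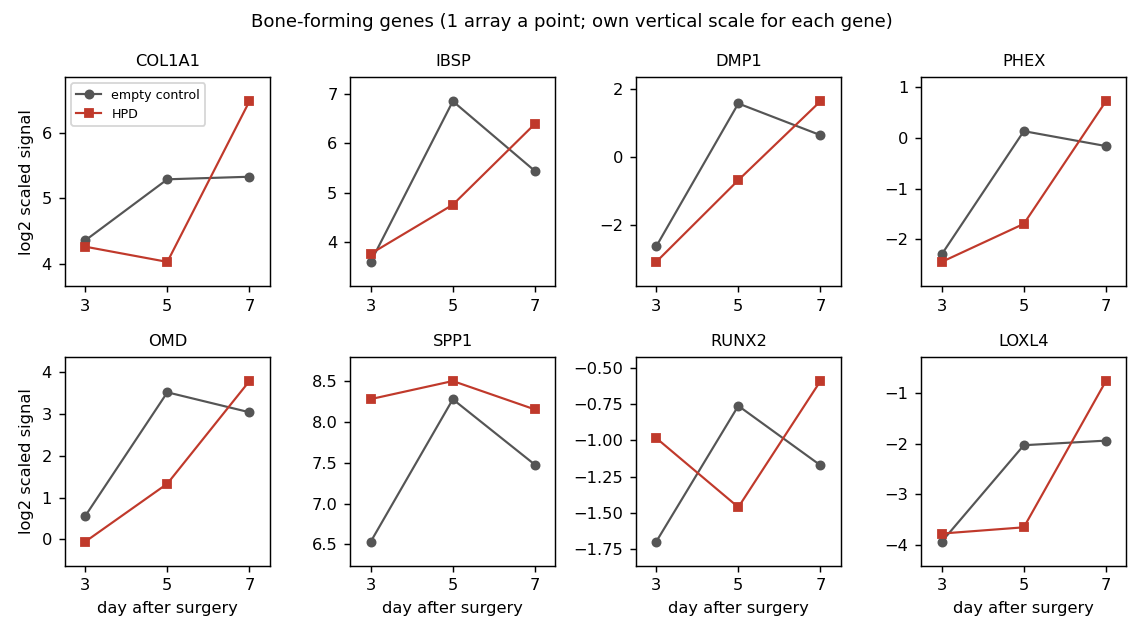
Levels (log2 scaled signal, own vertical scale for each gene) of 8 bone and matrix genes on days 3, 5 and 7 in control (grey) and HPD (red) tissue, 1 array a point. COL1A1, IBSP, DMP1, PHEX, OMD, RUNX2 and LOXL4 are higher in the control on day 5 and higher with HPD on day 7.

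Of the osteoblast transcription factors, 7 of 8 measured were higher with HPD, beside 54% of all named genes, with a median of 0.35 and none at 2-fold. RUNX2, the master regulator of the lineage, stood at -1.17 in the control and -0.59 with HPD, with 6 probes between 0.36 and 0.61. SP7, which acts after RUNX2, differed by 0.27. RUNX3 was the member that was lower, by -0.27, and DLX6 was well above background only in the control.

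Collagen handling was split. Of 17 measured genes for collagen folding and cross-linking, 10 were higher with HPD and 7 lower, beside 54% of all named genes higher. The median was 0.17, and 2 were at least 2-fold higher, beside 1.24% of all named genes. SERPINH1, the collagen chaperone HSP47, stood at 2.23 in the control and 3.30 with HPD, with 2 probes at 0.46 and 1.07. LOXL4, a lysyl oxidase-like enzyme that cross-links collagen, stood at -1.94 and -0.76. Its 5 probes lay between 0.83 and 1.18, and its normexp difference was 0.77. LOXL2 of the same family was lower with HPD, by -0.68.

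In the signalling lists no member reached 2-fold. For the Wnt pathway, which drives osteoblast formation, 21 of 27 measured members were higher, beside 54% of all named genes. The count was 22 of 27 with normexp and 19 of 27 with median centring. The Wnt median was 0.25, or 0.13 with normexp. The largest were TCF7, a nuclear effector (-1.15 in the control and -0.32 with HPD), and DKK1, a secreted inhibitor (-0.56 and 0.20). For TGF-beta and BMP signalling 12 of 21 were higher, with a median of 0.07. BMP4, a bone morphogenetic protein, stood at -0.24 and 0.42, with 5 probes from 0.66 to 0.76. BAMBI, a decoy receptor that dampens this pathway and a target of Wnt signalling, was outside the list. It stood at 1.26 in the control and 2.57 with HPD, a 2.49-fold difference, after 2.55 and 0.11 on day 5.

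Osteoclast genes did not share the direction of the matrix genes. Of 11 measured, 4 were higher and 7 lower, with a median of -0.13, none at 2-fold and a range from -0.30 to 0.53. ACP5, tartrate-resistant acid phosphatase, stood at 5.34 in the control and 5.04 with HPD. CTSK, the collagen-cleaving cathepsin K, stood at 6.30 and 6.15. ATP6V0D2, a proton pump subunit of the osteoclast, stood at 3.71 and 4.18. TNFSF11 (RANKL), the cytokine that forms osteoclasts, was dim, at -4.00 and -4.39 (-0.09 apart with normexp), and its receptor TNFRSF11A was well above background on neither array.

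Cartilage genes were higher in 10 of 13 measured, beside 54% of all named genes. Their median was 0.29, or 0.10 with normexp, and none was at 2-fold. ACAN, the cartilage proteoglycan aggrecan, was dim and differed by 0.54, which was 0.09 with normexp. COL2A1, the collagen of cartilage, differed by 0.37 (0.32 with normexp). COL10A1, the collagen of hypertrophic cartilage, differed by -0.58 (-0.19 with normexp).

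Some genes of fibrous connective tissue were lower with HPD, while the lists of such genes, given after them, were mixed. DPT encodes dermatopontin, a small protein of the soft connective tissue matrix. Its 5 probes were each shifted by 1 base and repeated the same reading. The first and the last are shown because each gives the difference on its own; capitals mark the 56 bases that all 5 share, on oryCun2 at chr13:24322366-24322425 and chr13:24322370-24322429 (plus strand).
DPT first probe: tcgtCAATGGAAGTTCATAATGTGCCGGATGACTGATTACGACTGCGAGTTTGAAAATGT
DPT last probe: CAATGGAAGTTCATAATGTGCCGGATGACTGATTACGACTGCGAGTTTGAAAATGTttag

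The first probe read 2.53 in the control and -0.28 with HPD, and the last read 2.52 and -0.19. The brightest of the 5 stood at 2.79 and -0.07, which was 7.26-fold lower with HPD. Over the 5 probes the difference ran from -2.86 to -2.71, and the normexp value was -2.62. On day 5 the order had been the opposite, at -0.50 in the control and 0.86 with HPD. The control level of day 7 was the highest of the 6 arrays.

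POSTN, periostin, which fibroblasts and periosteum make in healing tissue, stood at 7.10 in the control and 5.90 with HPD, and its 4 probes lay between -1.21 and -0.97. ACTA2, smooth muscle actin, which marks myofibroblasts and vessel walls, stood at 2.37 and 1.09 on 1 probe. ACTG2, the enteric smooth muscle actin, stood at 0.21 and -0.77, with 5 probes between -1.13 and -0.95. On day 5 POSTN had been at 5.14 and 5.39 and ACTA2 at 0.40 and 0.86, so the HPD levels of day 7 lay nearer to those of day 5 than the control levels did.

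Other matrix and fibroblast genes, here and in the next paragraph, were named by the rule for the lowest differences over 3 settings. That rule also asked for all probes of the same sign. Their lower level with HPD was thus set by the choice and is no separate finding. CSRP2, a LIM protein of smooth muscle and fibroblasts, stood at 4.91 in the control and 3.31 with HPD, 3.03-fold lower, with 5 probes from -1.60 to -1.52. EFEMP1, fibulin-3 of elastic matrix, stood at 0.94 and -0.74, 3.21-fold lower. IGFBP6, a binding protein for insulin-like growth factor II, stood at 4.51 and 3.19, 2.49-fold lower. For each of these genes the control level on day 7 was above both day 5 levels.

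ITM2A, a membrane protein of mesenchymal progenitors, stood at 6.49 in the control and 5.15 with HPD, with 6 probes from -1.34 to -1.16. CAV1, the coat protein of caveolae in fibroblasts and endothelium, stood at 5.07 and 3.86, with 7 probes from -1.21 to -0.98. ANGPTL1, a secreted angiopoietin-like protein, stood at -0.41 and -2.07, a difference of -1.15 with normexp. ECM2, a matrix protein, stood at 3.62 and 2.44. ITM2A and ECM2 were also among the 5 genes at least 2-fold lower with HPD on both day 5 and day 7.

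Seen as lists, fibrous genes were mixed. Of 12 fibrillar and associated collagens, 9 were lower with HPD, beside 46% of all named genes, with a median of -0.10. The count of lower members was 8 of 12 with normexp, 7 of 12 with quantile normalization and 9 of 12 with median centring. COL5A3 stood at 2.01 and 0.72, COL6A1 at 3.09 and 2.04, and COL3A1, the collagen of early repair tissue, at 10.48 and 9.76. COL5A1 and COL5A2 differed by -0.01 and -0.04. COL1A1, also on this list, was its only member at least 2-fold higher.

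Of 13 granulation tissue matrix genes, 7 were higher and 6 lower. The fibroblast protease FAP stood at 3.33 in the control and 2.40 with HPD, and the microfibril protein FBN1 at 3.65 and 2.94. FN1, fibronectin, stood at 7.04 and 7.56 on its brightest probe, but its 11 probes ran from -0.56 to 0.52 and gave it no settled direction. TNC, tenascin-C, differed by 0.09. Of 13 contractile genes of myofibroblasts, 6 were higher and 7 lower, with a median of -0.09.

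Small leucine-rich proteoglycans, which bind collagen fibrils, split by member. OGN, mimecan, stood at 4.91 in the control and 3.92 with HPD, and LUM, lumican, at 8.07 and 7.19. BGN, biglycan, which is rich in bone, stood at 3.33 and 3.89, and OMD is given above. Of 10 measured members 6 were higher and 4 lower. The list's median of 0.15 turned to -0.032 among the brighter probes.

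**Figure D3:**
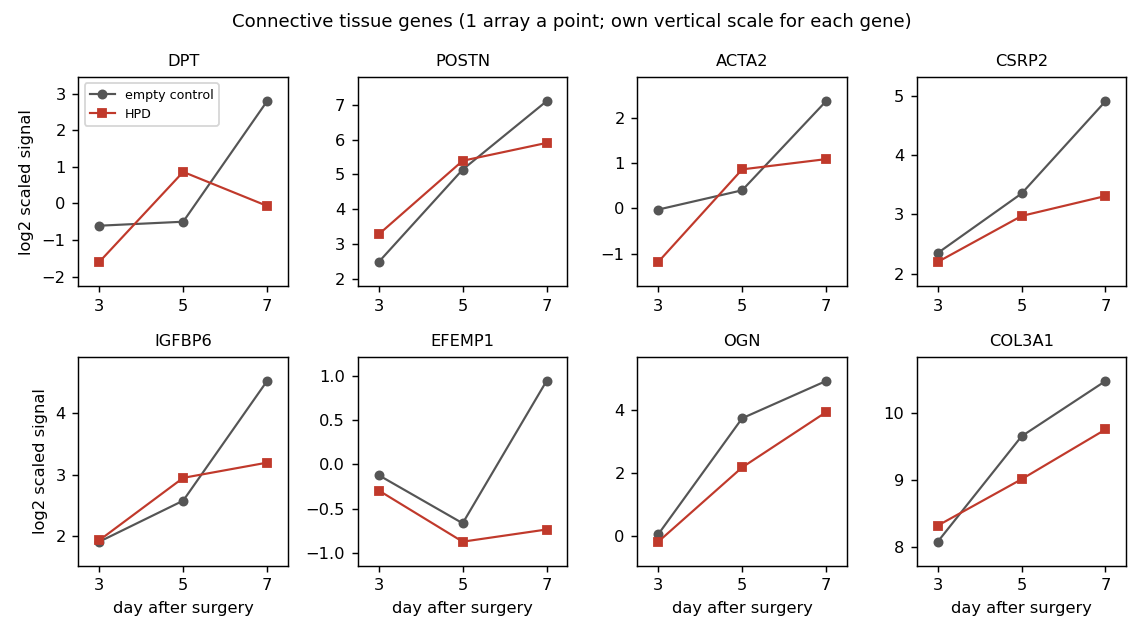
Levels (log2 scaled signal, own vertical scale for each gene) of 8 connective tissue genes on days 3, 5 and 7 in control (grey) and HPD (red) tissue, 1 array a point. On day 7 the control point is the highest of the 6 in every panel; DPT, for example, reads 2.79 in the control and -0.07 with HPD.

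Most inflammatory genes were also higher with HPD, as were most members of several other lists. Of 15 inflammatory cytokine genes measured, of 19 on the array, 12 were higher with HPD, 3 of them at least 2-fold. In the other direction, 1 was at least 2-fold lower. Among all named genes 54% were higher, 1.24% at least 2-fold, and 0.935% were at least 2-fold lower. With quantile normalization 11 of the 15 cytokine genes were higher, and with median centring 10 of 15. The median of the cytokine genes was 0.81, which was 0.35 with normexp and 0.51 when probes were averaged. IL10 and IL19 were among the members well above background in the control only, which are outside these counts. In all, 18 of the 19 were well above background in the control and 15 with HPD. Without the filter on dim probes 14 of 19 were higher with HPD and 5 lower. Of 10 chemokine genes 7 were higher, 2 at least 2-fold, with a median of 0.45 that was 0.12 with normexp. Their count of higher members was 6 of 10 with normexp, quantile normalization or median centring.

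PTGS2, the inducible cyclooxygenase that makes prostaglandins, stood at 0.38 in the control and 2.34 with HPD, with a normexp difference of 1.83. Its 3 probes ran from 0.91 to 2.11. It was also higher with HPD on day 3, at 3.87 against 2.66, and on day 5, at 3.11 against 2.16. CXCL8, the interleukin-8 that attracts neutrophils, stood at -0.68 and 1.24, with 7 probes from 0.84 to 2.02. CCL4, which attracts monocytes and T cells, stood at -0.42 and 0.98, with 5 probes from 1.31 to 1.41. Both had been higher with HPD on day 5 as well, CXCL8 at 4.44 against 1.31 and CCL4 at 4.00 against 1.65.

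All of these levels were lower on day 7 than on day 5 in both tissues. IL1B, an early cytokine of macrophages, went from 3.91 in the control and 5.62 with HPD on day 5 to 1.22 and 2.17 on day 7. IL1RN, which blocks its receptor, stood at 4.19 and 5.17 on day 7. TNF stood at -1.73 and -0.92, with 5 probes from 0.42 to 1.21 and a normexp difference of 0.51.

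IL6 and LIF, related cytokines, were dim. IL6 stood at -3.01 in the control and -1.79 with HPD, with 5 probes from 1.11 to 1.42 and a normexp difference of 0.62. LIF stood at -2.95 and -1.40, with a normexp difference of 0.86. The size of both therefore depended on the background correction, and both stayed above 0.

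IL18, a cytokine released through inflammasomes, was the member at least 2-fold lower. It stood at 0.43 in the control and -0.79 with HPD, and all 7 of its probes were lower, by -1.26 to -1.03. Among chemokines, CCL2, which recruits monocytes, was lower, at 2.09 and 1.42, with 4 probes from -0.83 to -0.67.

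For IL1A, which encodes interleukin-1 alpha, 2 of its 3 measured probes gave opposite directions, and they are shown because they share 30 bases, in capitals, of the same transcript. They lie on oryCun2 at chr2:97561589-97561648 and chr2:97561619-97561678 (minus strand).
IL1A probe 1: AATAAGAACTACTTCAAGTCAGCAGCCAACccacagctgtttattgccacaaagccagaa
IL1A probe 2: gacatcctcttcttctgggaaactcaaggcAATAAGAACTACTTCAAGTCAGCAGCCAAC

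The first read -3.16 in the control and -1.24 with HPD, and the second read -0.68 and -1.22. No direction is given for IL1A.

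Neutrophil genes were higher in 11 of 13 measured, beside 54% of all named genes, with a median of 0.40. At least 2-fold higher were 3 of the 13, beside 1.24% of all named genes. The probes of the leading members are shown. LCN2 encodes lipocalin 2, a granule protein that binds bacterial iron carriers, and S100A8 a subunit of calprotectin, abundant in neutrophils. The S100A8 probe lies on oryCun2 at chr13:39004945-39005004 (plus strand), and the LCN2 probe has no coordinates in the files.
LCN2: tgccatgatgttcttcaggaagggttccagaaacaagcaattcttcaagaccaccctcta
S100A8: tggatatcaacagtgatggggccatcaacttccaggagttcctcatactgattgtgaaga

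LCN2 stood at -2.78 in the control and -0.15 with HPD, on 1 probe, and its normexp difference was 1.72. On day 5 both arrays had been low, at -2.59 and -2.57, and on day 3 both were high, at 7.08 in the control and 4.73 with HPD. S100A8 stood at 3.01 and 4.91 on day 7, with 7 probes from 1.81 to 1.90, and S100A9, its partner, at 2.31 and 3.67. The 2 probes of S100A9 differed by 0.74 and 1.36, so only its brighter probe passed 2-fold. CAMP, the antimicrobial cathelicidin, stood at 0.37 and 1.36, with 5 probes from 0.97 to 1.04. These 4 genes had been lower with HPD on day 3 and were far lower on day 7 than on day 3 in both tissues. The summed linear signal of the neutrophil list was 25.0 in the control and 57.7 with HPD on day 7, against 1457 and 530 on day 3 (multiples of the 75th percentile). Most of the day 7 gap in this sum came from S100A8 and S100A9, so it does not describe the list as a whole.

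**Figure D4:**
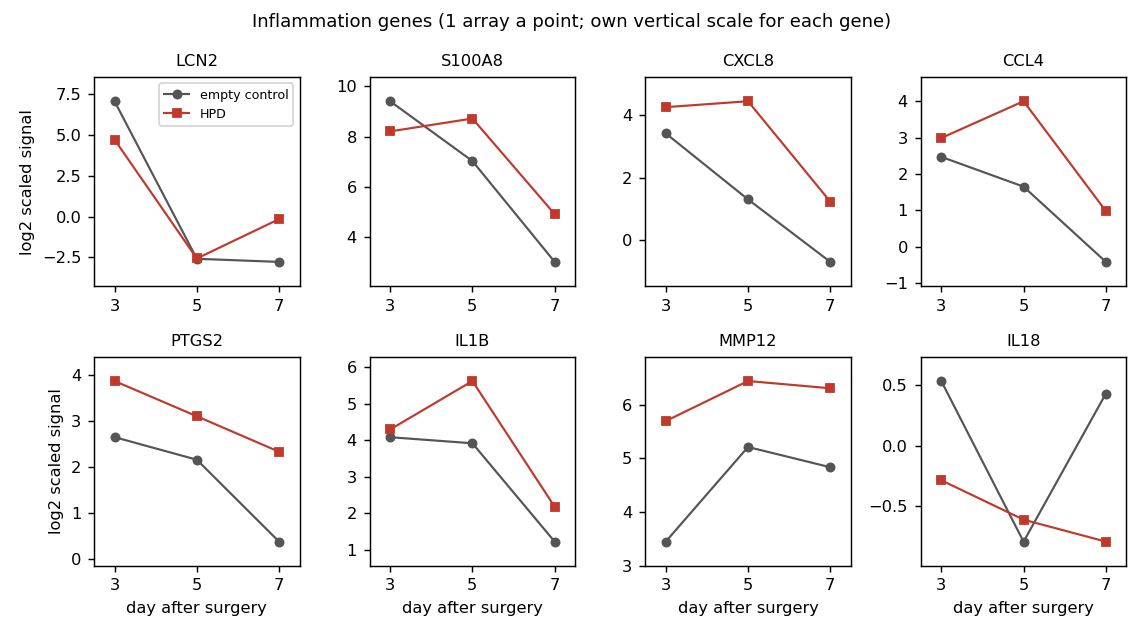
Levels (log2 scaled signal, own vertical scale for each gene) of 8 inflammation genes on days 3, 5 and 7 in control (grey) and HPD (red) tissue, 1 array a point. On day 7 HPD is above the control in 7 panels, PTGS2 for example at 2.34 against 0.38, and below it for IL18.

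Macrophage genes as a list barely differed, with 13 of 21 higher, a median of 0.16 and 1 member at 2-fold. Of 15 lipid handling and adipocyte genes 10 were higher, with a median of 0.16 and 1 at 2-fold. Among all named genes 54% were higher, and 1.24% at least 2-fold. The genes that follow are single genes, named by the size of their difference or as members of lists, and form no list of their own. MMP12, the macrophage elastase, stood at 4.83 in the control and 6.31 with HPD, 2.77-fold higher. LPL, lipoprotein lipase, stood at 0.93 and 2.45, 2.85-fold higher. LGALS3, galectin-3, stood at 5.48 and 6.59, with 5 probes from 1.11 to 1.16. All 3 were at least 2-fold higher with HPD on day 3 and day 5 too, as were EGLN3, an oxygen-sensing hydroxylase, and KMO, an enzyme of tryptophan breakdown.

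CHIT1, the chitinase of activated macrophages, stood at -2.004 and -0.81, with a normexp difference of 0.79. ARG1, arginase, stood at -2.05 and -0.51, with 4 probes from 1.54 to 1.87 and a normexp difference of 1.05. TFRC, the transferrin receptor, stood at -1.46 and 0.05, with 3 probes from 1.502 to 1.56. In contrast VSIG4, a receptor of resident macrophages, differed by -0.55, and CD68, CSF1R and MRC1 by 0.37, -0.07 and -0.19. EGLN3 was the single 2-fold member of 30 hypoxia and glycolysis genes, whose median was 0.02 on day 7 and 0.79 on day 5.

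Other white cell lists differed by little. Of 18 lymphocyte genes 14 were higher, beside 54% of all named genes, with a median of 0.25 and none at 2-fold. CD3D, a chain of the T cell receptor complex, stood at -0.33 and 0.33. All 9 eosinophil and mast cell genes were higher, 8 of 9 with median centring, with a median of 0.15. The eosinophil granule proteins PRG3 and EPX passed 2-fold at the dim end, at -4.48 and -3.35 and at -4.94 and -3.91, and their normexp differences were 0.26 and 0.13.

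Immediate early genes, which answer many stimuli, were higher on single genes named by the rule or as list members. FOS stood at -0.22 in the control and 1.095 with HPD, and EGR1 at -0.60 and 0.62, with its 2 probes at 0.40 and 1.22. RGS1, a regulator of G protein signalling in white cells, stood at -0.41 and 0.95, with 4 probes from 1.18 to 1.36.

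Ribosomal protein, respiratory chain and cell cycle genes leaned below the control, by small amounts at the median. Among all named genes, 46% were lower. Of 33 ribosomal protein genes 29 were lower, with a median of -0.15 (-0.12 with quantile normalization). Of 29 respiratory chain genes 26 were lower, with a median of -0.18 (-0.08 with quantile normalization). These counts moved with the scaling. With quantile normalization 26 of 33 ribosomal and 18 of 29 respiratory chain genes were lower. With median centring 33 of 33 and 28 of 29 were lower. With a 75th percentile over measured probes only, 22 of 33 and 21 of 29 were lower. Of 36 cell cycle genes 29 were lower, with a median of -0.19, a range from -0.91 to 0.46 and none at 2-fold. The summed linear signal of this list, which its brightest members dominate, went the other way. It was 418 in the control and 518 with HPD (multiples of the 75th percentile). CDK1, the kinase that starts mitosis, stood at 3.95 and 3.30, while MKI67 differed by -0.00. The brightest group of all probes had a median of -0.11, and its part in these lists was not tested.

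Markers of other tissues were also checked. Of 18 skeletal muscle genes 8 were higher and 10 lower, and of 14 brain genes 5 were higher and 9 lower, with medians of -0.03 and -0.25 (-0.08 with normexp for brain). Their summed linear signals were 13.9 in the control and 11.6 with HPD for muscle, and 6.60 and 5.81 for brain. Endothelial genes, 10 of 14 higher beside 54% of all named genes, had a median of 0.13. Of 13 epidermal genes on the array 5 were measured. The bone matrix list was above background in 18 of 18 members on both day 7 arrays, with summed signals of 1362 and 1817.

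**Figure D5:**
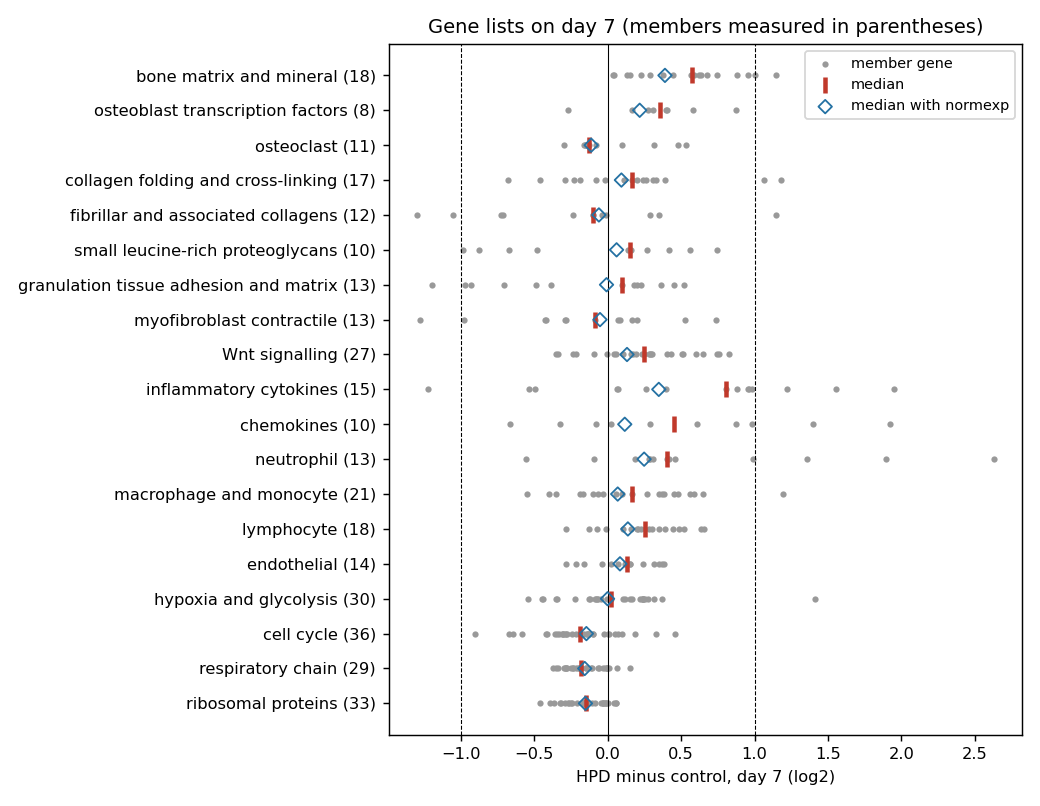
Differences at day 7 (log2, HPD minus control, horizontal axis) of the measured members of 19 gene lists, 1 point a gene, with the median as reported and the median after normexp correction. As scaled here, bone matrix members all lie to the right of 0, with medians of 0.58 and 0.39, and cell cycle, ribosomal and respiratory chain medians lie to the left.

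The largest single differences rested mostly on 1 probe each. RABIF, a chaperone for Rab proteins, stood at -3.00 in the control and 0.29 with HPD, and N4BP2L1 stood at -0.43 and -4.20. UNG, a glycosylase of DNA repair, stood at -1.04 and -4.20. With normexp these differences were 2.15, -1.94 and -1.496. For these genes the reading that stood apart was confined to 1 of the 6 arrays: the other 5 lay between -3.24 and -2.45 for RABIF, between -4.51 and -3.83 for N4BP2L1 and between -4.67 and -3.94 for UNG. Of the 191 named genes at 2-fold, 116 had 1 measured probe. Of the 75 with several, 53 had all probes on the same side of 0 and 23 had all of them at 2-fold.

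HOXC6, a homeobox transcription factor, shows how far overlapping probes could part. Of its 5 probes, each shifted by 1 base on chromosome 4 between 37812711 and 37812774, one read -4.82 in the control and -0.93 with HPD, a difference of 1.62 with normexp. Its neighbour 1 base away read -4.45 and -4.38. The remaining 3 differed by -0.04, -0.05 and -0.45 and were not well above background on both arrays. Likewise SCGB1D had probes at 0.59 and 3.36, and HTR5A at 0.03 and 2.97, where the larger values were 1.80 and 1.03 with normexp.

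Some genes were well above background on 1 day 7 array only, and there the fold is a bound, taken against the higher of the dim reading and the lowest signal well above background on that array. With HPD alone, 165 probes were measured, 129 of them with a bound of at least 2-fold. In the control alone, 3290 were measured, 145 with such a bound. Both counts are out of 43603 probes. The lowest signal well above background lay at -4.57 on the HPD array and at -5.34 on the control array. How far this made the counts uneven was not tested. The largest bounds for named genes were SPP2, a secreted phosphoprotein that binds BMPs, at least 13.05-fold higher with HPD, and GRXCR2 and KCNC2, at least 11.9-fold and 11.6-fold lower. The last rest on 1 of 5 probes of GRXCR2 and 1 of 2 of KCNC2. SPP2 had 1 probe and was above background on none of the other days' arrays.

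The overlap with earlier days was partial, and each day has its own control array. Of the 109 genes at least 2-fold higher on day 7, 29 were so on day 5 as well, which is 26.6% of the day 7 genes and 8.55% of the 339 day 5 genes. A further 9, or 8.26%, had been at least 2-fold lower on day 5, among them COL1A1, DMP1, LOXL4 and BAMBI. For comparison, 3.78% of all named genes were at least 2-fold higher on day 5 and 1.69% lower. With day 3, 14 were shared, 12.8% of the day 7 genes and 6.73% of the 208 day 3 genes, beside 2.26% of all named genes.

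Of the 82 genes at least 2-fold lower on day 7, 5 were so on day 5, or 6.10%, beside 1.69% of all named genes. Another 14 had been at least 2-fold higher on day 5, DPT among them. These were 17.1% of the day 7 genes and 4.13% of the day 5 genes, beside 3.78% of all named genes. ACTA2 was lower on both day 7 and day 3.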

How the data were processed

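Total RNA of new tissue was amplified and labelled with Cy3, per the labels' protocols, and 1 array was made per treatment and day. What was deposited is a processed intensity for every spot, linear and single-dye. Per the file headers, Agilent Feature Extraction made it with both spatial and multiplicative detrending, and dim spots got substitute values. The headers record no scaling between arrays, and give oryCun2 as the design's genome. An array has 45220 spots. Spots well above background made up 85.3% (control) and 78.1% (HPD) on day 7, and 0 spots were saturated. The number of arrays limits the precision.

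Here each intensity was put on the log2 scale, and the 75th percentile over probes that are not controls was subtracted within the array. Outlier spots were dropped (41 probes lost), repeated spots averaged, and 22658 probes named with 1 symbol through array columns and a RefSeq gene table (mOryCun1.1), which served for names alone; 21 had several symbols and 20945 in all stayed without one. A gene takes its brightest probe. Coordinates are those of the files, on oryCun2; exon and UTR annotation was not used here. Counts use a 2-fold limit. The members, the 44 gene lists and the rule for named genes were chosen with earlier results of these data known. That rule took the 12 highest and 12 lowest genes, 20 each way by the smallest difference over 3 settings with all probes of the same sign, up to 6 members a list, a fixed set of bone and inflammation genes, and up to 10 bounds each way. KMO, ARG1, POU2AF1 and the antibody probes were named after their values were seen. Alternatives were normexp (offset 50), quantile and median scaling, 3 other filters on dim probes, a percentile over measured probes and the mean of probes. Counting was tested on simulated data. Tools were Python 3.11.15, pandas 2.3.3, numpy 2.4.6, matplotlib 3.10.9, R 4.3.3 and limma 3.58.1 (normexp and quantile only). One gene's own values are not reported here.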

Additional observations from a re-analysis of the deposited data

Results flagged for a closer look

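Genes at least 2-fold apart on day 5 and at least 2-fold apart the other way on day 7 numbered 23 among the named genes measured on both days. With 1 array per treatment and day, the difference between the days was not tested. Values are log2 HPD minus control, with day 7 first and day 5 second. With normexp all 23 kept opposite signs, but 4 stayed at 2-fold on both days, namely COL1A1, BAMBI, CRYBA4 and DPT.

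Higher with HPD on day 7 and lower on day 5 were COL1A1 (1.15 and -1.26), DMP1 (1.004 and -2.27), LOXL4 (1.18 and -1.63) and MAMDC2 (1.12 and -2.21). The others of that direction were BAMBI (1.31 and -2.44), CRYBA4 (1.32 and -1.48), GNAI1 (1.05 and -1.55), ELL2 (1.003 and -1.35) and PDK4, which restrains glucose oxidation (1.003 and -1.13).

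Lower on day 7 and higher on day 5 were DPT (-2.86 and 1.36), MEDAG, an adipocyte gene (-1.18 and 1.36), and MYH3 (-1.84 and 2.63), TMEM182 (-1.28 and 1.78) and COLQ (-1.15 and 2.78), which are known from muscle. The day 7 value of TMEM182 was 0.42 on its other probe. Also here were ANO2 (-1.77 and 1.49), KCNA3 (-1.30 and 1.003), KCNK13 (-1.03 and 1.44) and CNTN1 (-2.56 and 1.06). The remaining genes were ATP6V0A1 (-1.05 and 1.97), ERBB2 (-1.03 and 1.65), FANCD2OS (-1.57 and 1.30), MUC12 (-1.08 and 1.197) and PNLIP (-1.28 and 1.26). The day 7 value of ATP6V0A1 was -0.04 on its other probe. Of these 14 genes, DPT was the only one at 2-fold on both days with normexp, at -2.62 and 1.16. CNTN1 was then at -1.05 and 0.04, MYH3 at -0.76 and 1.09, COLQ at -0.34 and 0.98, ANO2 at -0.73 and 0.42, KCNA3 at -0.54 and 0.27, and KCNK13 at -0.37 and 0.26.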

How the results depend on the processing

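Of the 44 list medians, 27 kept their sign under every alternative, as did 278 of 290 named genes. The 17 lists that did not had medians between -0.15 and 0.24 as reported, and 12 genes did not. Granulation tissue, for example, went from 0.09 to -0.13 with the mean of probes and antigen presentation from -0.021 to 0.11. Normexp gave 117 probes at least 2-fold higher and 94 lower, no filter on dim probes 1054 and 1490, and the brighter probes alone 142 and 110. For named genes normexp gave 35 and 29, the brighter probes 42 and 35, and no filter 254 lower. Medians with normexp were 0.39 for bone matrix, 0.35 for cytokines, 0.12 for chemokines and 0.25 for neutrophil genes. Without the filter cytokines had 0.40 and chemokines 0.29, and chemokines had 0.29 over probes above background on all 6 arrays. Among the brighter probes cytokines had 0.96, chemokines 1.40 and contractile genes -0.28. The mean of probes gave cytokines 0.51. Signs also turned for small leucine-rich proteoglycans (-0.032) and mesenchymal progenitor genes (0.056) among the brighter probes, and with the mean of probes for osteoclast ligands and decoys (-0.020) and for PRKACA (0.20), whose 5 probes disagreed. The cause of these shifts was not tested. No paired analysis was possible because each treatment and day has 1 array. Whether animals differ cannot be read from these arrays.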

Other observations

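Antibody genes carry no symbol on this array and lie outside the lists; they were looked at after their values were seen. The probe for immunoglobulin kappa b9 stood at 2.36 in the control and 4.06 with HPD on day 7, 3.26-fold higher, with a normexp difference of 1.71. The probe for kappa allotype b5 stood at -2.65 and -0.94, and the one for the gamma heavy chain at -4.17 and -2.46 (1.05 and 0.65 with normexp). On day 5 the kappa b9 probe had read 4.76 and 6.01, and on day 3 it had read 9.36 and 8.15, so both tissues were lower by day 7. The mu heavy chain differed by -0.06 and the lambda isotype c7 by -0.28. Of 1074 probes for antibody variable regions, 721 were measured on day 7. Of these, 35 were at least 2-fold higher (4.85%) and 9 at least 2-fold lower (1.25%), beside 1.57% and 0.859% of all measured probes. Their median difference was 0.20, or 0.07 with normexp. POU2AF1, a coactivator of B cells and plasma cells, stood at -4.48 in the control and -3.00 with HPD, with a normexp difference of 0.48.

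RBP4, the carrier of retinol in blood, stood at -0.00 in the control and 1.65 with HPD on day 7, 3.15-fold higher, while on day 3 it was at 3.94 and 3.29 and on day 5 at 2.55 and 1.68.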
